A study of Mus musculus with 12 samples.

Results

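The neutrophil marker genes examined here are S100a8, S100a9, Ly6g, Csf3r, Cxcr2, Mmp8, Ngp, Retnlg, Camp and Ltf, taken as a given list of 10 symbols and matched to Ensembl gene identifiers. Counts were analysed for 9 of the 10, all of which passed the filter on low counts; Ly6g was not analysed here. The whole table held 24187 genes, of which 22581 were tested. The series holds 12 whole-liver RNA libraries from C57BL/6J mice, as the labels name them; the methods also give C57BL6/JOlaHsd. The 3 control mice were untreated. The 9 others received acetaminophen (APAP), an analgesic that in overdose kills hepatocytes around the central veins, at 350 mg/kg by the sample labels. Of these, 5 were then given vehicle and 4 were given human alternatively activated macrophages (hAAMs), which are monocyte-derived cells polarised with IL-4 and IL-13. The labels name the vehicle as phosphate-buffered saline (PBS), and the methods as PBS with or without a cell cryopreservation medium. The study's methods give mice of 10 to 12 weeks, male or female, fasted before APAP, with vehicle or cells injected into a vein 16 h after APAP. Collection was 36 h after APAP by the methods and 32 h by the legend of a severe model of APAP injury. That model used 500 mg/kg APAP and 1000000 hAAMs. Whether the sequenced livers come from it is not stated. The sex of each sequenced animal is not stated. The labels number the replicates without naming animals, so the p-values measure the spread between these libraries.

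Neutrophils are short-lived granulocytes that form in the bone marrow under granulocyte colony-stimulating factor and enter the blood and injured tissue along gradients of CXC chemokines. They are released with granules already packed, so genes of granule proteins are transcribed mainly in marrow precursors, whereas mature cells keep high levels of S100a8, S100a9, Csf3r and Cxcr2 mRNA. In APAP injury, neutrophils gather with monocytes around the necrotic areas of the lobule. In bulk liver RNA, fewer neutrophils and less RNA per neutrophil cannot be told apart.

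Total counts ran from 47391650 to 74056505 per liver, and 4 livers stood apart in ways that bear on the results. Vehicle replicate 3 and hAAM replicate 4 differed by 1.20 times the counting noise over 15488 genes, against at least 2.38 times for each of the other pairs among 66, although their labels put them in different groups. Whether they come from separate animals was not tested. Control replicate 1 held 1528 counts of the chemokine Cxcl2 and 647 of the endothelial selectin Sele, against 44 and 27, and 22 and 15, in the other two controls. Vehicle replicate 5 held 3697 counts of the immunoglobulin gene Ighm, against 164 to 355 in the other livers. Its summed red blood cell markers reached 2032 CPM (counts scaled to library size), against 135 to 735. The part of these differences in the neutrophil results was not tested, and the main changes without these livers are given beside the results.

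S100a8 and S100a9 encode the subunits of calprotectin, a calcium- and zinc-binding protein that fills the neutrophil cytosol. On GRCm38 they lie 22596 bases apart, S100a8 at chr3:90668978-90670035 on the forward strand and S100a9 at chr3:90692632-90695721 on the reverse strand. Mmp8, neutrophil collagenase, lies at chr9:7558456-7568485 on the forward strand. The DNA just before the start of these 3 genes and of Cxcr2 is shown because, for all 4, the same 4 APAP livers were highest and the same 3 lowest. It is from RefSeq on GRCm38.p6, 5′ to 3′ on the strand of the gene, at chr3:90668821-90668977, chr3:90695722-90695971, chr1:74153744-74153988 and chr9:7558179-7558428. The S100a8 and Cxcr2 stretches stop where the GENCODE gene begins. Capitals mark matches to TTNNGCAA or TGNNGCAA on either strand (TTGCNNAA or TTGCNNCA on the other), letters close to those that C/EBP factors, the regulators of granulocyte genes, can bind.
S100a8: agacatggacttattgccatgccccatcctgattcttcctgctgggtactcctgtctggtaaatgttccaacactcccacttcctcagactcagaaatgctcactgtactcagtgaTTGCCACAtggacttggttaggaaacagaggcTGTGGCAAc
S100a9: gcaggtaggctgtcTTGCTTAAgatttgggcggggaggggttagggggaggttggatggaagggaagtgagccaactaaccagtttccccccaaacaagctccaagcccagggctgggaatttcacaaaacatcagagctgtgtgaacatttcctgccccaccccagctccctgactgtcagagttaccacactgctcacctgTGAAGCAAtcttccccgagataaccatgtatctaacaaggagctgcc
Cxcr2: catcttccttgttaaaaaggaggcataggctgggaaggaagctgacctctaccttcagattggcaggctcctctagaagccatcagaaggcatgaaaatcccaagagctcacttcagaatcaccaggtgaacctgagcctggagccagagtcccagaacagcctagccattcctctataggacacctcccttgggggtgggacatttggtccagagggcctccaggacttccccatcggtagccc
Mmp8: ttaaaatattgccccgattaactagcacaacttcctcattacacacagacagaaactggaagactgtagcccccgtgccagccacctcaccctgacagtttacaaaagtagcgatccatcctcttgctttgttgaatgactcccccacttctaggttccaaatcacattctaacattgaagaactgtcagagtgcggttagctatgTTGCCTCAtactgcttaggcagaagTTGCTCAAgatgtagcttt
Of the 9 genes, 8 held at least 1 match in the 250 bases before their RefSeq start, Cxcr2 being the exception. The share among all 32851 RefSeq windows of that length was 18.1%. A match is a description of the letters and not evidence of a bound factor.

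S100a9 gave 373, 192 and 73 counts in control replicates 1 to 3. It gave 167, 111, 69, 347 and 659 counts in vehicle replicates 1 to 5 and 214, 264, 67 and 101 in hAAM replicates 1 to 4. The 3 groups overlapped throughout, and control replicate 1 exceeded every APAP liver except vehicle replicate 5. With TMM factors in the scaling, S100a9 averaged 3.86 ± 2.92 CPM in controls (SD, n = 3), 4.20 ± 3.42 with vehicle (n = 5) and 3.03 ± 1.71 with hAAMs (n = 4). S100a8 gave 217, 96 and 30 counts in controls. With vehicle it gave 163, 101, 56, 328 and 516 counts, and with hAAMs 192, 251, 66 and 68. The livers high in S100a9 were also high in S100a8. Its means were 2.08 ± 1.84 CPM, 3.63 ± 2.65 CPM and 2.71 ± 1.71 CPM in the same order of groups.

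Csf3r, the receptor for granulocyte colony-stimulating factor (chr4:126024550-126044440, forward strand), had the most counts of the 9 genes. Controls gave 700, 295 and 216 counts. Vehicle-treated mice gave 956, 497, 358, 1895 and 1388, and hAAM-treated mice gave 1179, 1380, 448 and 385. Control replicates 2 and 3 lay below all 9 APAP livers in CPM, while control replicate 1 lay above 4 of them. Means were 7.42 ± 5.13 CPM in controls, 16.1 ± 8.68 with vehicle and 15.9 ± 9.35 with hAAMs. Cxcr2, which senses the chemokines Cxcl1 and Cxcl2 (chr1:74153989-74161246, forward strand), gave 95, 45 and 16 counts in controls. It gave 178, 105, 44, 372 and 329 counts with vehicle and 183, 261, 35 and 43 with hAAMs. Vehicle replicate 3 and hAAM replicates 3 and 4 were within the range of the controls in CPM. Cxcr2 averaged 0.945 ± 0.775 CPM, 3.22 ± 1.97 CPM and 2.44 ± 2.05 CPM in controls, vehicle and hAAMs.

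Mmp8 gave 62, 26 and 6 counts in controls. It gave 85, 63, 37, 160 and 133 counts with vehicle and 86, 89, 47 and 42 with hAAMs. As with Csf3r, control replicates 2 and 3 lay below every APAP liver and control replicate 1 lay among them. Means were 0.570 ± 0.549 CPM in controls, 1.52 ± 0.660 with vehicle and 1.24 ± 0.459 with hAAMs. Retnlg, a resistin-like secreted protein of mature neutrophils (chr16:48872621-48874496, forward strand), gave 87, 46 and 18 counts in controls. Vehicle-treated mice gave 43, 16, 23, 45 and 100 counts, and hAAM-treated mice 29, 38, 12 and 19. Its mean was highest in controls, at 0.912 ± 0.671 CPM, against 0.722 ± 0.461 with vehicle and 0.460 ± 0.208 with hAAMs, with the groups overlapping.

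**Figure D1:**
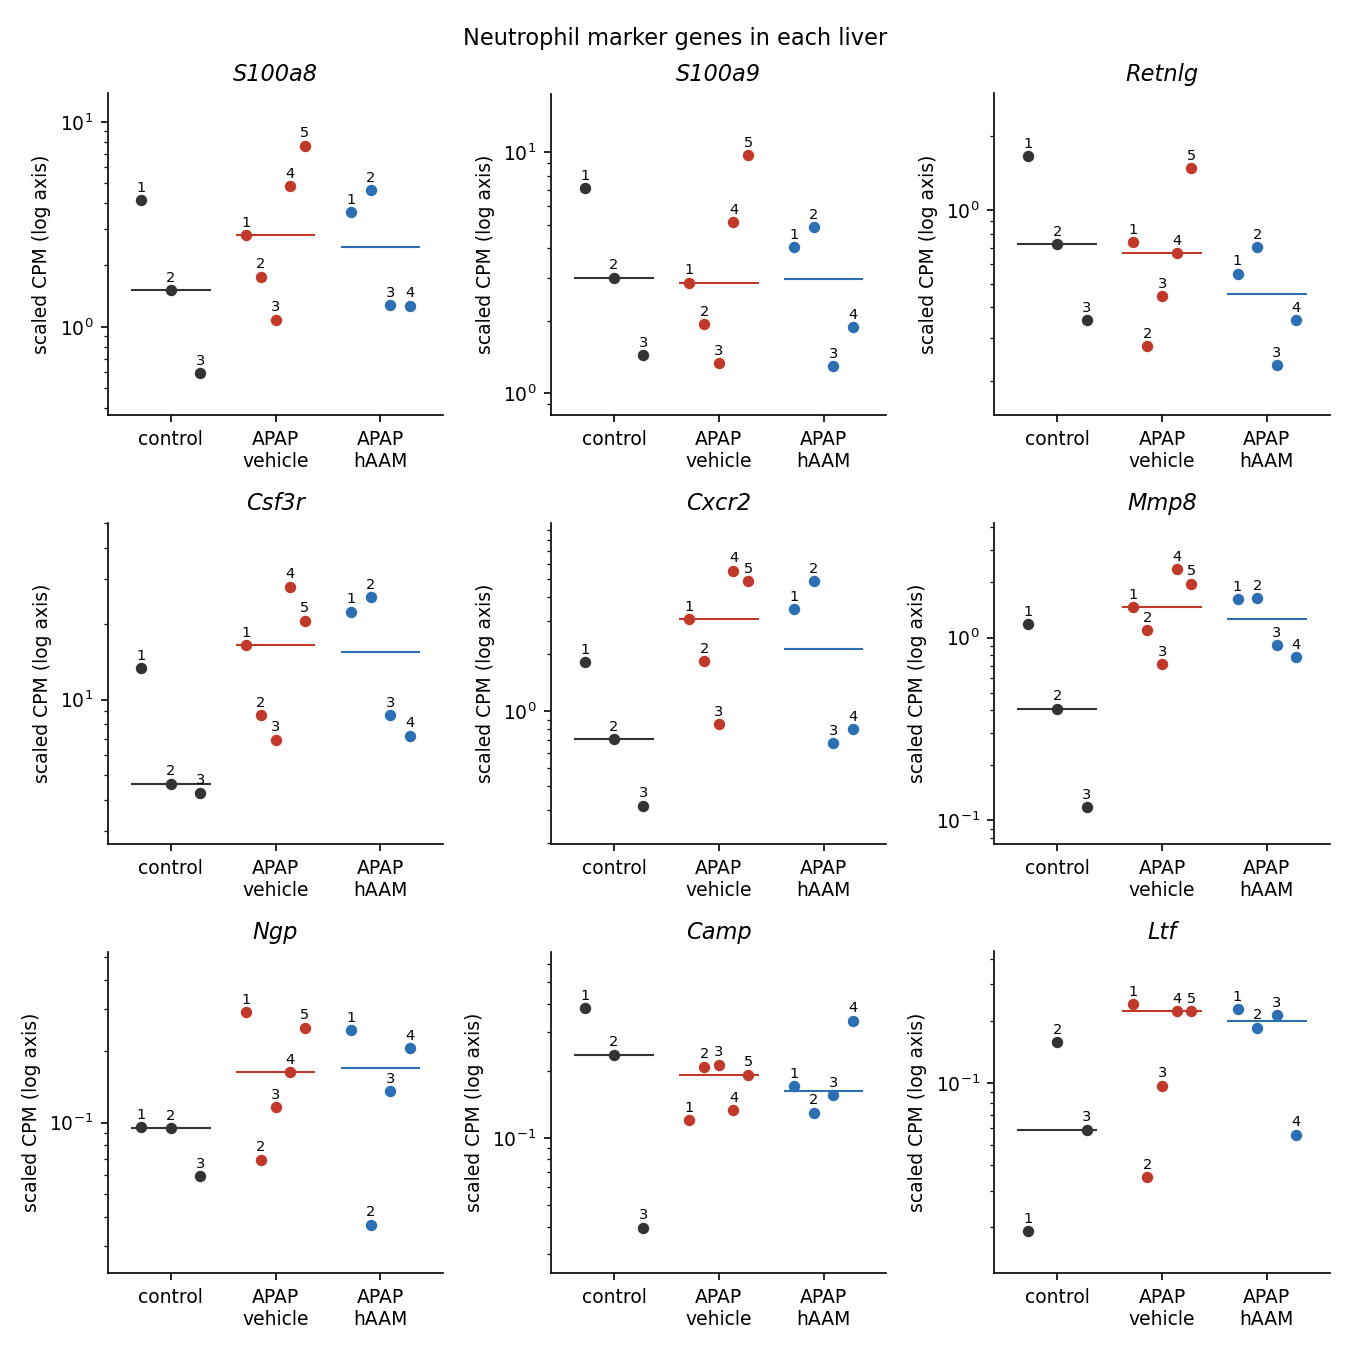
Level of each of the 9 neutrophil marker genes in each liver, in TMM-scaled CPM on a log axis; points are livers labelled by replicate number and lines are group medians. Control replicate 1 lies among the APAP livers for Csf3r, Cxcr2 and Mmp8, while control replicates 2 and 3 lie below all of them for Csf3r and Mmp8.

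Ngp, Camp and Ltf encode granule proteins made mainly in marrow precursors, and all 3 were at or below 20 counts per liver. Ngp, neutrophilic granule protein (chr9:110419747-110423012, forward strand), gave 5, 6 and 3 counts in controls, 17, 4, 6, 11 and 17 with vehicle, and 13, 2, 7 and 11 with hAAMs. Camp, the cathelicidin antimicrobial peptide (chr9:109847379-109849617, reverse strand), gave 20, 15 and 2 counts in controls, 7, 12, 11, 9 and 13 with vehicle, and 9, 7, 8 and 18 with hAAMs. Ltf, the iron-binding lactotransferrin (chr9:111019271-111042767, forward strand), gave 1, 10 and 3 counts in controls, 14, 2, 5, 15 and 15 with vehicle, and 12, 10, 11 and 3 with hAAMs. Such numbers carry wide counting error. The exact 95% Poisson interval was 0.0253 to 5.57 for the 1 count of Ltf in control replicate 1 and 12.2 to 30.9 for the 20 counts of Camp there. These intervals cover counting error only. All 3 genes overlapped between the groups. Their order across livers also differed from that of the other members, and control replicate 1 had the highest Camp and the lowest Ltf of all 12 livers.

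Levels can be compared between genes only per length. In CPM per kilobase of exon, averaged over all 12 livers, S100a9 was highest at 7.14 ± 5.03 (SD), followed by S100a8 at 4.23 ± 3.02 and Csf3r at 3.85 ± 2.34. Retnlg reached 1.15 ± 0.762, Cxcr2 0.785 ± 0.618, Mmp8 0.491 ± 0.269 and Camp 0.255 in this unit. Ngp, at 0.120, and Ltf, at 0.0419, were lowest. From S100a9 to Camp, neighbours in this order differed by less than the larger of their SDs, except Csf3r and Retnlg. The order by group means varied, since with hAAMs Csf3r (4.41) stood above S100a8 (3.90) and Cxcr2 (0.802) above Retnlg (0.775), and in controls Camp (0.289) stood above Mmp8 (0.235). None of the 9 overlaps another gene in the GENCODE annotation.

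The first question was whether APAP injury moved these genes relative to untreated liver. Between vehicle-treated mice and controls, edgeR's quasi-likelihood test with Benjamini-Hochberg adjustment called none of the 9 at a false discovery rate (FDR) of 0.05, whereas it called 29.8% of all genes tested. At an unadjusted p under 0.05, 2 of the 9 passed, Cxcr2 and Mmp8, against 41.8% of all genes. DESeq2 called 1 of the 9, Mmp8, at an adjusted p of 0.0394, and 34% of all genes. None of the 9 had groups that did not overlap, which was so for 34.8% of all genes. In edgeR the log2 difference was 1.78 for Cxcr2 (SE 0.80, adjusted p = 0.113), 1.42 for Mmp8 (SE 0.58, adjusted p = 0.0805) and 1.12 for Csf3r (SE 0.58, adjusted p = 0.162). It was 0.81 for S100a8 (SE 0.72, adjusted p = 0.421 in edgeR) and 0.13 for S100a9 (SE 0.66, adjusted p = 0.903). Ngp and Ltf had differences of 1.09 and 0.99, with edgeR adjusted p-values of 0.177 and 0.290, and the Ltf estimate moved to 0.56 without control replicate 1 and to 2.03 without control replicate 2. Retnlg, at -0.32, and Camp, at -0.35, were the 2 with a negative estimate, so that 7 of the 9 were above 0, against 51% of all genes. The median over the 9 genes was 0.99 on the log2 scale and that over all genes tested was 0.01. Without control replicate 1, the difference for Mmp8 grew to 2.48 and was called by edgeR (adjusted p = 0.0151), while Cxcr2 reached 2.63 (adjusted p = 0.0724) and Csf3r 1.86 (adjusted p = 0.0606). S100a8, at 1.78, and S100a9, at 0.91, stayed uncalled there (edgeR adjusted p = 0.139 and 0.407). Without vehicle replicate 5, S100a9 turned to -0.44 and S100a8 fell to 0.34, with edgeR adjusted p-values of 0.622 and 0.745. Without the near-identical pair of livers none of the 9 was called, against 30% of all genes in that fit, and Cxcr2 and Mmp8 had edgeR adjusted p-values of 0.0538 and 0.0555.

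In hAAM-treated mice against the same controls, edgeR again called 0 of the 9 genes, with 20.7% of all genes called. None passed an unadjusted p of 0.05, which 35.2% of all genes did, and DESeq2 called 0 of the 9 and 25.8% of all genes. The groups overlapped for each of the 9, and did not for 28.5% of all genes. The log2 difference was 1.37 for Cxcr2 (SE 0.82, edgeR adjusted p = 0.254), 1.13 for Mmp8 (SE 0.60, adjusted p = 0.198) and 1.10 for Csf3r (SE 0.60, adjusted p = 0.209). Retnlg had the lowest estimate, -0.98 (SE 0.59, edgeR adjusted p = 0.260). S100a8, at 0.38, and S100a9, at -0.35, had adjusted p-values of 0.751 and 0.760 in edgeR. Of the 9, 6 were above 0, against 51.5% of all genes. The median over the 9 genes was 0.88, against 0.02 over all genes tested. Mmp8 was called by edgeR once control replicate 1 was left out, at 2.19 (adjusted p = 0.0374). In that fit Cxcr2 reached 2.23 and Csf3r 1.84, with edgeR adjusted p-values of 0.146 and 0.0836, S100a8 reached 1.35 and S100a9 turned to 0.44. The Retnlg estimate shrank to -0.24 (edgeR adjusted p = 0.824). Both APAP groups share the control livers, so these values are not independent of those for vehicle.

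The second question was whether hAAMs changed these genes in the injured liver. With hAAMs against vehicle, 0 of the 9 were called by edgeR, and 0% of all genes tested. DESeq2 called 0 of the 9 and 0.00443% of all genes, and 0 of the 9 passed an unadjusted p of 0.05, against 5.02% of all genes. All 9 overlapped between these groups, as did all but 1.4% of the genes tested. Estimates were above 0 for 2 of the 9 and for 50.9% of all genes. The intervals were wide and left room for changes either way. For S100a9 the log2 difference was -0.48 with a 95% interval from -1.82 to 0.86, and for S100a8 it was -0.43 (-1.82 to 0.97). Csf3r differed by -0.02 (-1.12 to 1.08) and Cxcr2 by -0.40 (-1.86 to 1.05). Mmp8 stood at -0.30 (-1.36 to 0.76), Retnlg at -0.66 (-1.82 to 0.50), Ngp at -0.21 (-1.25 to 0.84), Camp at 0.19 (-0.84 to 1.23) and Ltf at 0.03 (-1.18 to 1.25). Without the near-identical livers, one from each group, 0 of the 9 and 0% of all genes were called by edgeR, and the S100a9 and S100a8 differences were -0.54 and -0.43. Without vehicle replicate 5 they were 0.10 and 0.04.

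**Figure D2:**
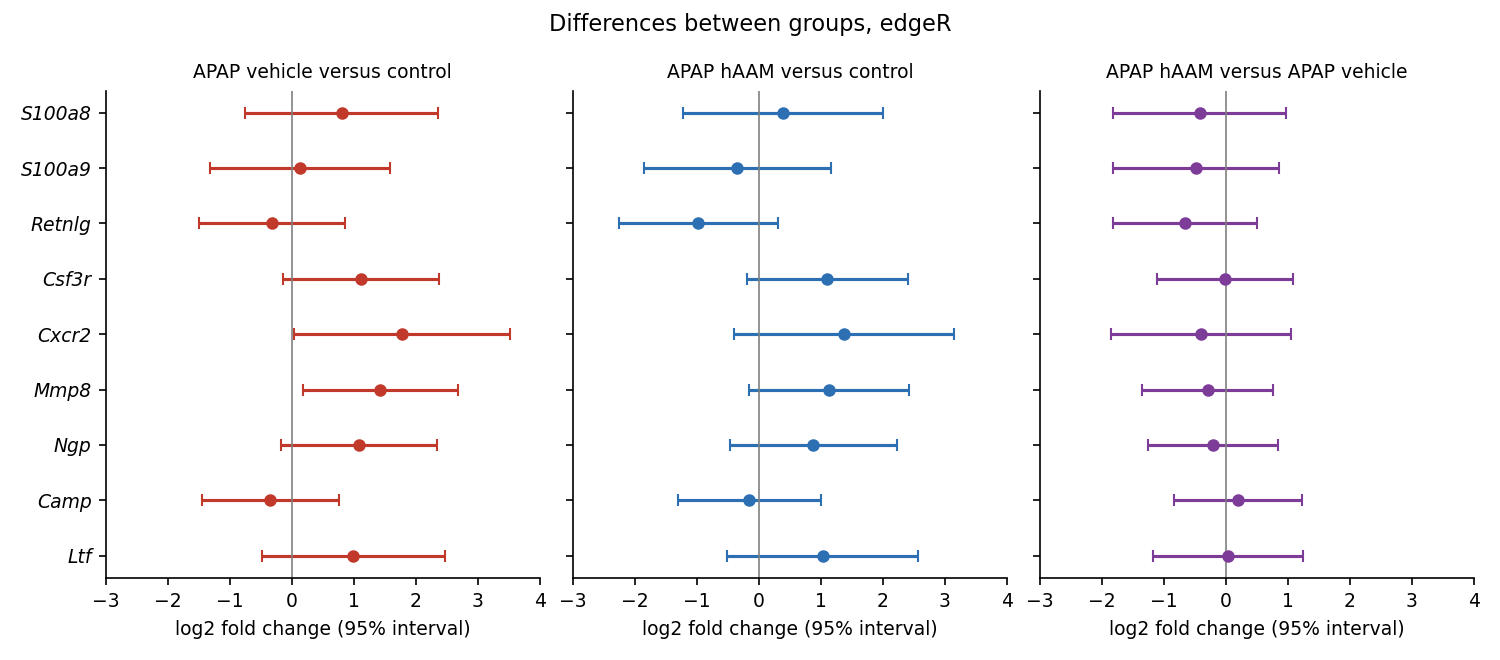
Log2 difference between groups for the 9 neutrophil marker genes in the 3 comparisons, from edgeR, with 95% intervals unadjusted for the number of genes. Only the intervals of Cxcr2 and Mmp8 for vehicle against control lie above 0, and neither gene passed an FDR of 0.05; every interval for hAAM against vehicle spans 0.

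The spread within groups was large for these genes. The biological coefficient of variation, edgeR's estimate of spread between replicates beyond counting, was 0.646 for S100a8, 0.684 for Cxcr2, 0.517 for Csf3r and 0.392 for Camp, the lowest of the 9. Its median over all genes tested was 0.175, and 98.8% of them had a lower value than S100a8. S100a8, S100a9, Csf3r, Cxcr2 and Mmp8 ranked the APAP livers much alike. Among the 9 APAP livers, vehicle replicates 4 and 5 and hAAM replicates 1 and 2 were the top 4 for each of these 5 genes, but held only 1 of the top 4 places for Camp and 2 for Ngp. Vehicle replicate 3 and hAAM replicates 3 and 4 were the lowest 3 for S100a8, S100a9, Cxcr2 and Mmp8. The summed counts of the 9 genes were 1630, 911, 609, 3182 and 3170 with vehicle and 1917, 2302, 701 and 690 with hAAMs. The 4 high livers came from both treatments. Of the 3 low livers, the only vehicle liver, replicate 3, is near-identical to hAAM replicate 4, so low levels in both treatments rest on that pair. Controls summed to 1560, 731 and 367.

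**Figure D3:**
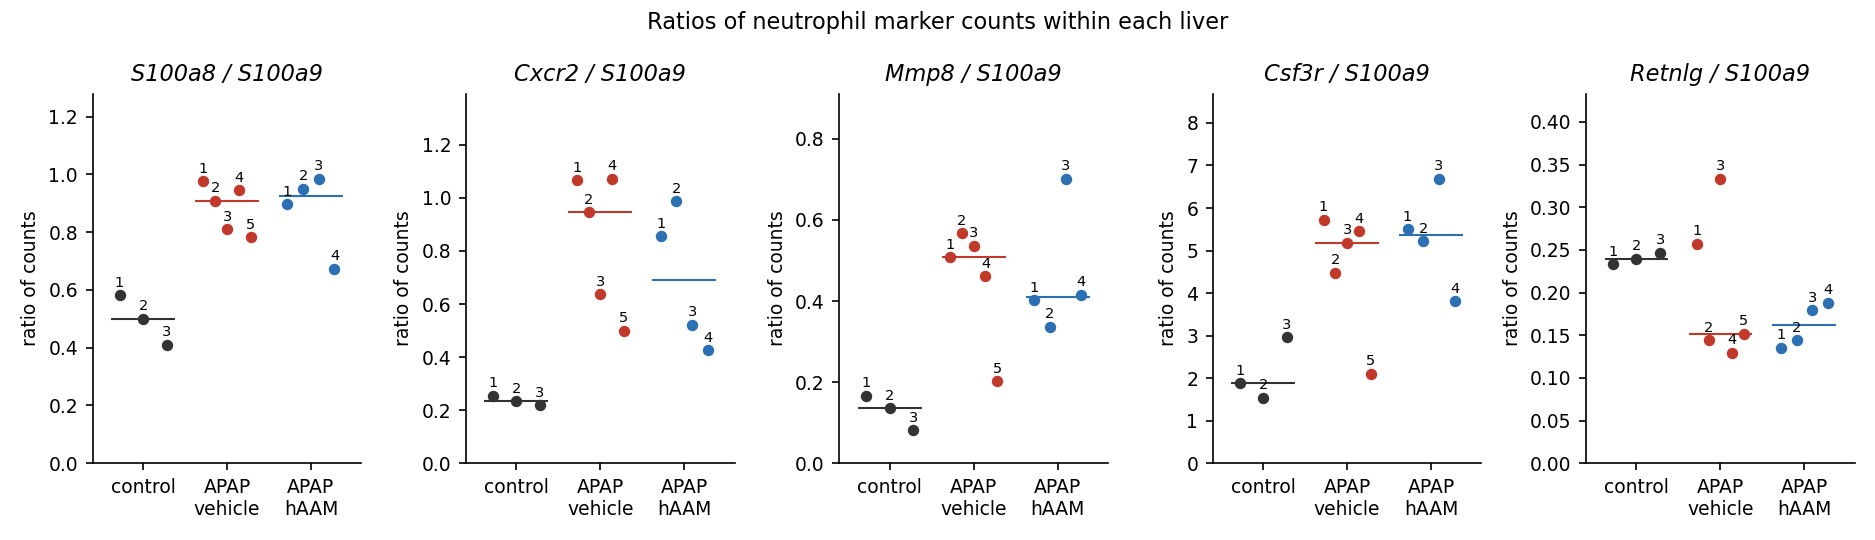
Ratio of the count of S100a8, Cxcr2, Mmp8, Csf3r or Retnlg to the count of S100a9 in each liver, on linear axes from 0; points are livers labelled by replicate number and lines are group medians. The S100a8, Cxcr2 and Mmp8 ratios of all 9 APAP livers lie above those of all 3 controls.

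The ratios of S100a8, Cxcr2 and Mmp8 to S100a9 did not overlap between APAP livers and controls, whereas those of Csf3r and Retnlg did, and vehicle and hAAM livers overlapped in all 5. Over the other genes tested, the ratio to S100a9 put every APAP liver above every control liver for 1.27%, and the spread of S100a9 enters every such ratio. S100a8, Cxcr2 and Mmp8 correlated across livers at 0.95, 0.88 and 0.86 with the mean of the other members. Most other genes were not chosen for varying alike, so the 1.27% is not a like background. The 5 member ratios were examined after the values had been seen and were not tested. S100a8 made up 36.8%, 33.3% and 29.1% of the S100a8 and S100a9 counts in control replicates 1 to 3. The share ran from 43.9% to 49.4% with vehicle and from 40.2% to 49.6% with hAAMs, without overlap with controls. The lowest APAP share, that of hAAM replicate 4, had an exact 95% binomial interval from 32.8% to 48.0%, which overlaps the 32.9% to 40.8% of control replicate 1, and these intervals also cover counting error only. Cxcr2 gave 0.219 to 0.255 counts per S100a9 count in controls, 0.499 to 1.07 with vehicle and 0.426 to 0.989 with hAAMs. Mmp8 gave 0.0822 to 0.166 counts per S100a9 count in controls, 0.202 to 0.568 with vehicle and 0.337 to 0.701 with hAAMs. Control replicate 1 had the highest S100a8, Cxcr2 and Mmp8 ratios of the 3 controls. Csf3r overlapped through vehicle replicate 5, with 1.54 to 2.96 in controls, 2.11 to 5.72 with vehicle and 3.81 to 6.69 with hAAMs. Retnlg per S100a9 count was 0.233 to 0.247 in controls, 0.130 to 0.333 with vehicle and 0.136 to 0.188 with hAAMs.

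Other genes of neutrophils are given from lists that hold the rest of the pathway. Of 24 further genes of mature neutrophils, 16 were tested. With vehicle 4 rose and 1 fell, and with hAAMs likewise 4 rose and 1 fell, with medians of 1.11 and 0.82 on the log2 scale. Over all genes tested, 15% rose and 14.8% fell with vehicle, and 10.7% rose and 9.96% fell with hAAMs. Cd177, a surface glycoprotein of neutrophils, rose by 2.54 with vehicle (SE 0.54, edgeR adjusted p = 0.00493) and by 2.26 with hAAMs (SE 0.55, adjusted p = 0.0149). It gave 20, 8 and 3 counts in controls, 36 to 97 with vehicle and 23 to 79 with hAAMs, and did not overlap in CPM. The Cd177 call with hAAMs was lost in edgeR without control replicate 2 or 3, at 2.02 and 1.87 (adjusted p = 0.0558 and 0.0568). Without control replicate 1 the Cd177 differences were 3.50 with vehicle and 3.23 with hAAMs (edgeR adjusted p = 0.00323 and 0.00791). Alox5ap, which serves leukotriene synthesis and is also expressed by macrophages, rose by 1.84 (SE 0.40, edgeR adjusted p = 0.00569) and 1.82 (SE 0.41, adjusted p = 0.0108). Fpr1, a receptor for bacterial and mitochondrial formyl peptides, was lower in CPM in every APAP liver than in every control liver. The fall was by 1.09 with vehicle (SE 0.24, edgeR adjusted p = 0.00587) and by 1.21 with hAAMs (SE 0.25, adjusted p = 0.00794). It gave 344, 215 and 185 counts in controls, 94 to 183 with vehicle and 82 to 132 with hAAMs. The Fpr1 differences shrank to -0.72 and -0.84 without control replicate 1 and were still called by edgeR (adjusted p = 0.0343 and 0.0330). Without control replicate 1, 8 of 17 rose with vehicle and 6 of 17 with hAAMs, and 1 fell in each. In that fit 11% of all genes rose and 10.5% fell with vehicle, and 6.57% rose and 6.54% fell with hAAMs. Without control replicate 2 or 3, 2 of 18 were higher with vehicle and 1 of 18 with hAAMs. The share of all genes higher was then 11.3% or 9.64% with vehicle and 7.28% or 4.82% with hAAMs. Clec4d and Ifitm6, both also expressed by monocytes, then lost their calls in both groups.

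Only 2 of 8 genes of primary granules and progenitors were tested, and both were lower with vehicle and 1 of them with hAAMs. Among all genes tested, 14.8% were lower with vehicle and 9.96% with hAAMs. Prtn3, the primary-granule serine protease proteinase 3, gave 135, 1699 and 1394 counts in control replicates 1 to 3. It gave 131 to 327 with vehicle and 98 to 292 with hAAMs, so that control replicate 1 lay with the APAP livers. The fall was by 2.20 with vehicle (SE 0.55, edgeR adjusted p = 0.0114) and by 2.52 with hAAMs (SE 0.60, adjusted p = 0.0135). Both Prtn3 calls were lost in edgeR without control replicate 3, at -1.83 and -2.15 (adjusted p = 0.0546 and 0.0557). Cebpe, a transcription factor of granulocyte maturation, fell by 0.53 with vehicle (SE 0.18, edgeR adjusted p = 0.0466) and had a difference of -0.38 with hAAMs (adjusted p = 0.185). The Cebpe call was lost without control replicate 1, at -0.58 (edgeR adjusted p = 0.0726), and without most other single livers, with adjusted p-values up to 0.228.

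Of 10 listed ligands and growth factors that recruit neutrophils, 6 were tested, of which 1 rose and 2 fell with vehicle and 0 rose and 1 fell with hAAMs. Among all genes tested, 15% rose and 14.8% fell with vehicle, and 10.7% rose and 9.96% fell with hAAMs. Cxcl1, a ligand of Cxcr2, gave 18680, 12275 and 8768 counts in controls. It gave 1510, 2000, 2917, 3156 and 1879 with vehicle and 3413, 2663, 2892 and 2895 with hAAMs. Every APAP liver lay below every control liver. The log2 difference was -2.65 with vehicle (SE 0.27, edgeR adjusted p = 9.95e-05) and -2.10 with hAAMs (SE 0.29, adjusted p = 0.00108), and it was -2.25 and -1.71 without control replicate 1. Il1b, an early inflammatory cytokine, gave 1170, 167 and 161 counts in controls, 49 to 243 with vehicle and 58 to 214 with hAAMs. The Il1b difference of -1.95 with vehicle was called by edgeR (SE 0.65, adjusted p = 0.0397), but it was -0.26 without control replicate 1 (adjusted p = 0.735). This call was also lost without any 1 of vehicle replicates 1 to 4, with differences from -2.13 to -1.75 (edgeR adjusted p = 0.0519 to 0.0784). With hAAMs Il1b was not called, at -1.94 (edgeR adjusted p = 0.0683), or at -0.25 without control replicate 1 (adjusted p = 0.784). Cxcl2, a further ligand of Cxcr2, was not called with hAAMs at -3.18 (SE 1.18, edgeR adjusted p = 0.0748), and this turned to 0.86 without control replicate 1. Ppbp, a chemokine stored in platelets, rose by 2.45 with vehicle (SE 0.72, edgeR adjusted p = 0.0237), a call lost without control replicate 1 (2.34, adjusted p = 0.0779) or 3 (2.29, adjusted p = 0.0840).

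**Figure D4:**
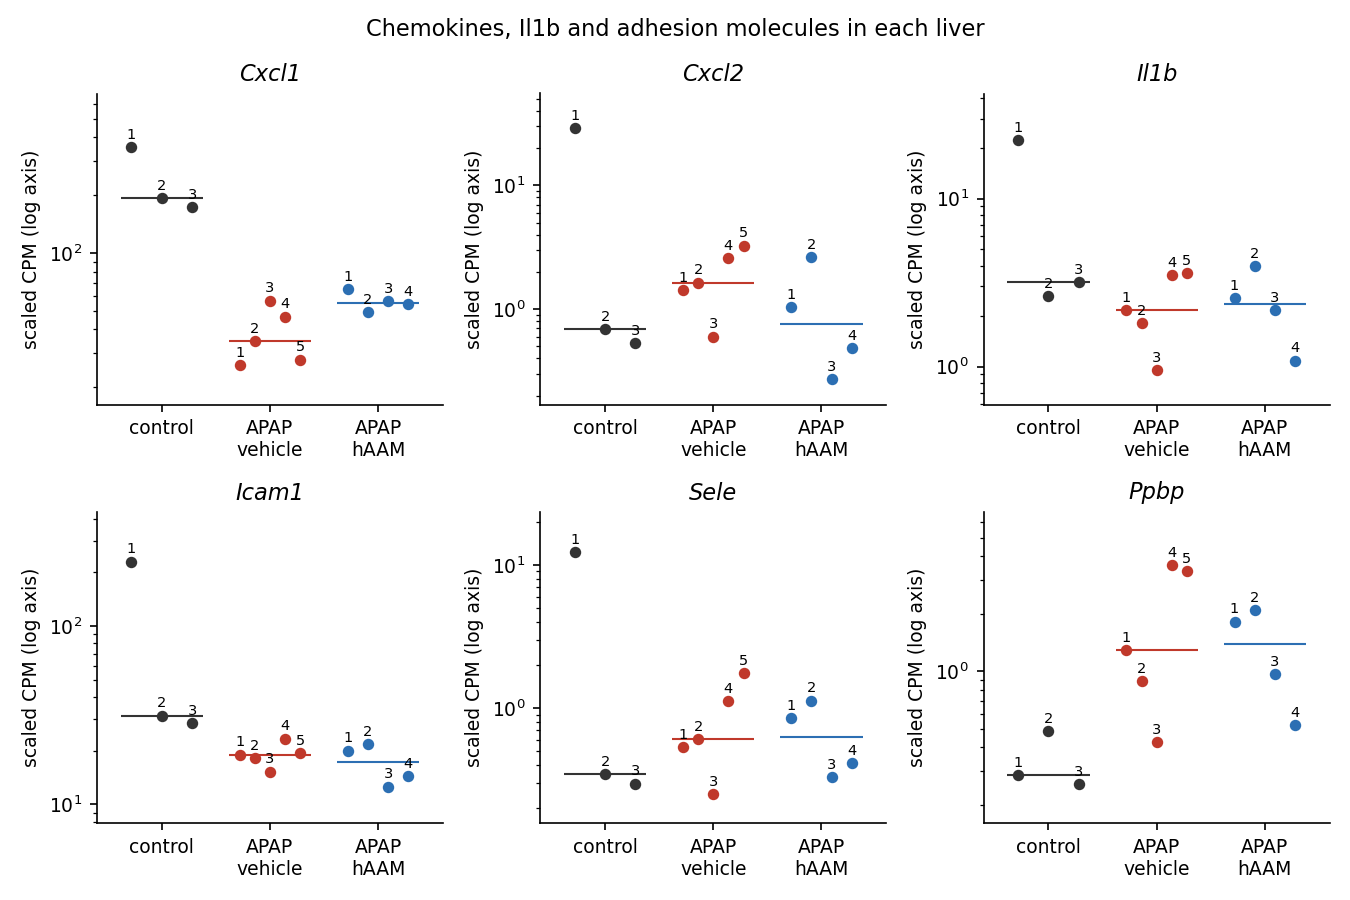
Levels of the chemokines Cxcl1, Cxcl2 and Ppbp, the cytokine Il1b and the endothelial adhesion molecules Icam1 and Sele in each liver, in TMM-scaled CPM on a log axis; points are livers labelled by replicate number and lines are group medians. Cxcl1 is lower in all 9 APAP livers than in all 3 controls, and control replicate 1 stands far above the other livers for Cxcl2, Il1b, Icam1 and Sele.

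Of 10 genes of adhesion and retention, 4 rose and 1 fell with vehicle, and 4 rose and 2 fell with hAAMs. The shares of all genes tested that rose and fell were 15% and 14.8% with vehicle and 10.7% and 9.96% with hAAMs. Without control replicate 3 the counts of the 10 were 2 and 2 with vehicle and 2 and 1 with hAAMs. In that fit 9.64% of all genes rose and 10.4% fell with vehicle, and 4.82% rose and 5.66% fell with hAAMs. Itgam was not called in either group without any 1 control (edgeR adjusted p = 0.0530 to 0.123), nor Selplg without control replicate 3, and the call of Cxcl12 with hAAMs was lost without 9 of the 12 single livers. Itgb2, the shared beta chain of the leukocyte integrins, rose by 1.48 in both groups (SE 0.31 and 0.32, edgeR adjusted p = 0.00441 and 0.00828). Cxcr4, the receptor that holds neutrophils in the marrow, rose by 2.01 (SE 0.51, edgeR adjusted p = 0.0117) and 2.30 (SE 0.52, adjusted p = 0.0112). Icam1, the endothelial ligand of those integrins, gave 12023, 2001 and 1446 counts in controls and 648 to 1580 in APAP livers. It fell by 2.34 with vehicle (SE 0.54, edgeR adjusted p = 0.00741) and by 2.49 with hAAMs (SE 0.58, adjusted p = 0.0124). These differences were -0.66 and -0.81 without control replicate 1 and were still called by edgeR (adjusted p = 0.0370 and 0.0289). Of 9 genes of the respiratory burst and Fc receptors, which all phagocytes use, 4 rose and 0 fell in each APAP group, and 1 rose in each without control replicate 3. Cyba, a subunit of the oxidase, rose by 1.14 and 1.22 (edgeR adjusted p = 0.00595 and 0.00812), and Fcer1g, the Fc receptor gamma chain, by 1.05 and 1.10 (0.0130 and 0.0175). The Fcer1g calls were lost in edgeR without control replicate 3, at 0.94 and 1.00 (adjusted p = 0.0571 and 0.0715).

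Markers of monocytes and recruited macrophages, which share many of these genes, moved with the APAP groups. Of 10, 7 rose and 0 fell in each, and 6 or 7 rose in each without any 1 control. Over all genes tested, 15% rose with vehicle and 10.7% with hAAMs. Without any 1 control these shares were 9.64% to 11.3% and 4.82% to 7.28%. The summed level of the monocyte markers was 164 to 188 CPM in controls, 314 to 494 with vehicle and 310 to 559 with hAAMs, without overlap with controls. Chil3, a lectin of recruited monocytes and of neutrophil precursors, rose by 5.67 with vehicle (SE 0.58) and 5.45 with hAAMs (SE 0.58). Control replicate 1 had the lowest monocyte marker level of the 12 livers, at 164 CPM, beside a summed level of the 9 neutrophil genes of 29.7 CPM, above the 11.5 and 7.25 CPM of the other two controls. The part of monocytes in the values of the listed genes was not tested. With hAAMs against vehicle, edgeR called 0 genes in each of these lists.

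**Figure D5:**
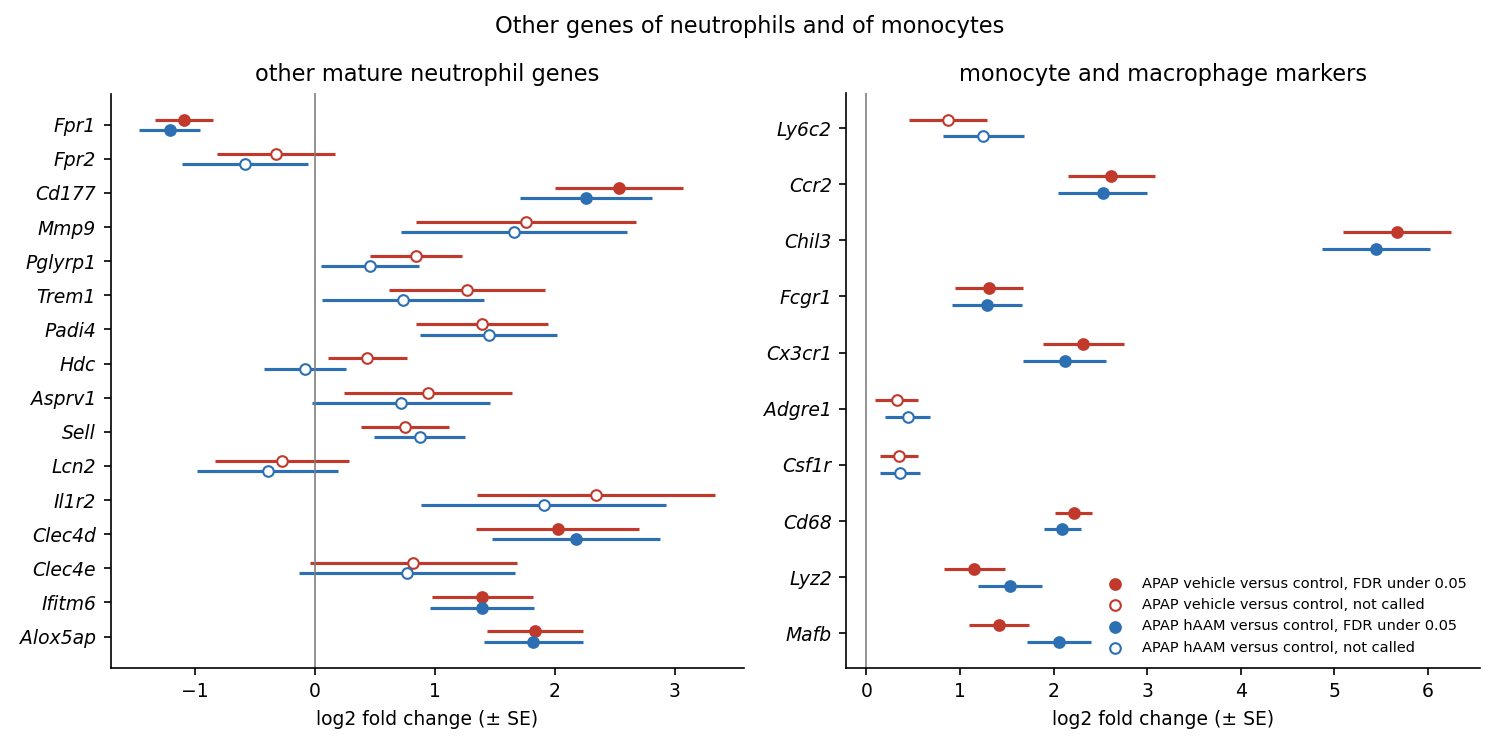
Log2 difference from control, with SE, of the 16 further mature neutrophil genes tested (left) and of 10 monocyte and macrophage markers (right), for vehicle (red) and hAAMs (blue); filled points passed an FDR of 0.05 in edgeR. In each APAP group 4 neutrophil genes rose and 1, Fpr1, fell, while 7 monocyte markers rose.

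Outside the members and lists, and leaving out genes whose log2 CPM averaged below 0, those whose levels across the 12 livers were most like the mean of the 9 scaled members were Adgrd1, Rpl7a, Btf3, Gm14287 and Rpl37. Their Pearson correlations, given as a description over livers that share their groups, ran from 0.904 to 0.930. Adgrd1, an adhesion G protein-coupled receptor, gave 82, 55 and 32 counts in controls, 67 to 218 with vehicle and 66 to 124 with hAAMs. Rpl7a and Rpl37 encode ribosomal proteins, whose near-identical copies make their counts uncertain. None of the 5 was called by edgeR in any of the 3 comparisons, with adjusted p-values of 0.0987 and above.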

How the data were processed

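Frozen mouse liver RNA was depleted of ribosomal RNA and sequenced. The authors trimmed reads with cutadapt 4.6, aligned them with STAR 2.7.1a to GRCm38 and deposited counts per gene, without normalization (submitters' processing notes and methods). The strand setting of the counting and the handling of reads from human cells are not given in the sources used here. Here, genes were filtered with filterByExpr by group, scaled by TMM and fitted in 1 edgeR 4.0.16 quasi-likelihood model over all 12 livers (R 4.3.3), with group as the only term, two-sided tests and Benjamini-Hochberg FDR over 22581 genes. The script was tested on simulated data. Symbols and lengths came from GENCODE M21. Alternatives were DESeq2 1.42.0 (the authors used 1.38.3), its size factors, library size alone, other filters, only the groups compared, a replicate block and leaving out livers. All 9 members were named, and of each further list the up to 3 genes with the smallest p in each APAP group against control, except 1 gene that is not reported here; other named genes were picked after their values were seen. Members, lists and cell markers were chosen with earlier results of these data known.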

Additional observations from a re-analysis of the deposited data

How the results depend on the processing

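Of 527 recomputed member differences, 490 kept direction and call, 4 gained a call and 33 turned in direction. The number of the 9 members called for vehicle against control was 1 with DESeq2, 1 with library size alone, which called Mmp8 and moved the median of all genes to 0.36, and 0 to 1 when 1 liver was left out. The share of all genes called was 34% with DESeq2, 43.2% with library size alone and 20.1% to 32% with 1 liver left out. The near-even split of rises and falls depended on the scaling. With library size alone 38.2% of all genes rose and 4.92% fell with vehicle, and 29% rose and 3.46% fell with hAAMs. For hAAM against control the number of members called was 0 to 1 when 1 liver was left out. In both, the 1 was Mmp8 without control replicate 1. All genes called for hAAM against control numbered 7340 with library size alone, 2729 with only those 2 groups and 2419 to 5456 with 1 liver left out (4666 in the fit reported). For hAAM against vehicle DESeq2 called 1 gene, and leaving out 1 liver gave 0 to 1. With library size alone, Retnlg turned to 0.033 for vehicle against control, Camp to 0.13 for hAAM against control and Ltf to -0.023 for hAAM against vehicle. Without the near-identical livers, Csf3r and Camp turned to 0.028 and -0.11 for hAAM against vehicle. The cause was not tested.

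Leaving out 1 liver at a time, differences for vehicle against control ran from -0.44 to 0.91 for S100a9, from -0.77 to 0.42 for Retnlg and from -0.82 to 0.26 for Camp. For hAAM against control they ran from -0.054 to 1.35 for S100a8, from -0.74 to 0.44 for S100a9 and from -0.62 to 0.46 for Camp. For hAAM against vehicle the ranges were -0.82 to 0.039 for S100a8, -0.81 to 0.10 for S100a9, -0.34 to 0.28 for Csf3r, -0.51 to 0.12 for Ngp, -0.19 to 0.35 for Camp and -0.21 to 0.33 for Ltf.

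Deviations from group means of same-numbered livers in different groups correlated from -0.46 to 0.39. Differently numbered livers were not compared, so these values cannot decide whether replicate numbers pair the livers. With the replicate block, 4253 genes were called for vehicle against control (6719 without) and 2959 for hAAM against control. With this block S100a9 turned to -0.44 for vehicle against control, and for hAAM against vehicle S100a8 turned to 0.085, S100a9 to 0.12 and Csf3r to 0.19.

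With groups of 3 to 5 and a spread this wide, small differences in these genes were not detectable, and Ngp, Camp and Ltf rest on at most 20 counts per liver.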

Other observations

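Other cell types were described by their markers, with calls by edgeR. Among all genes tested, 15% rose and 14.8% fell with vehicle, and 10.7% rose and 9.96% fell with hAAMs. Of 4 platelet markers tested, 3 rose with vehicle and 1 with hAAMs. Without control replicate 3 the counts were 1 and 0, against 9.64% and 4.82% of all genes, the call of Gp9 with vehicle being lost then (edgeR adjusted p = 0.106) and without control replicate 2 (0.0875). Pf4, a platelet chemokine, rose by 3.11 with vehicle (SE 0.66, edgeR adjusted p = 0.00525) and by 2.73 with hAAMs (SE 0.67, adjusted p = 0.0155), the latter call being lost without control replicate 2 or 3 (adjusted p = 0.05002 and 0.0606). Of 2 eosinophil markers tested, Siglecf rose in both APAP groups, by 2.99 (SE 1.02, edgeR adjusted p = 0.0444) and 3.48 (SE 1.04, adjusted p = 0.0339). Without control replicate 1 both Siglecf calls were lost in edgeR, at 2.73 and 3.22 (adjusted p = 0.128 and 0.102), as they were without either other control, with differences of 3.90 and 4.39 without control replicate 3. Siglecf gave 2, 2 and 7 counts in controls, 5 to 72 with vehicle and 8 to 82 with hAAMs. Of 6 red blood cell markers, 4 rose and 1 fell with vehicle, and 0 rose and 1 fell with hAAMs. The 4 that rose were the globin genes, by 2.46 to 2.56 with vehicle. Without control replicate 1 none of them was called with vehicle, at 2.68 to 2.80 (edgeR adjusted p = 0.0643 to 0.0679). The globin calls were also lost without control replicate 2, at 2.67 to 2.74, and without control replicate 3, at 2.10 to 2.21. Without vehicle replicate 5, whose summed red blood cell markers reached 2032 CPM, 4 rose with vehicle and 5 with hAAMs. In that fit 13% of all genes rose with vehicle and 10.2% with hAAMs. Alas2, which serves haem synthesis in red cell precursors, was the one that fell, by 1.67 and 1.27 (edgeR adjusted p = 0.000235 and 0.00265).

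Of 5 Kupffer cell markers, 1 rose in each APAP group, the scavenger receptor Marco, by 1.68 and 1.48 (edgeR adjusted p = 0.000329 and 0.00145). Of 5 hepatocyte markers, 1 fell with vehicle, Cyp2e1, the enzyme that turns APAP into its toxic metabolite, by 2.37 (SE 0.65, edgeR adjusted p = 0.0177), a call lost without control replicate 1 (-2.25, adjusted p = 0.05001). With hAAMs it differed by -1.63 (adjusted p = 0.114) and 0 of the 5 were called. Of 5 T and NK cell markers tested, 1 fell with vehicle, Cd4, a call lost without control replicate 3 (-1.02, edgeR adjusted p = 0.0609), and 0 were called with hAAMs. No B cell marker, of 5, and no mast cell or basophil marker, of 1 tested, was called in either APAP group, and 0 of these passed an unadjusted p of 0.05.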
